A study of Mus musculus with 6 samples.

Results

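Keratin and epithelial adhesion transcripts were followed in 6 RNA-seq libraries of mouse embryonic fibroblasts (MEFs). The set held 10 named genes out of the 55487 in each gene table: the basal keratins Krt5, Krt14, Krt15 and Krt17, the simple keratins Krt8, Krt18 and Krt19, and the epithelial genes Epcam, Cdh1 and Trp63. Symbols were assigned from Ensembl gene IDs through GENCODE M21 of mouse build GRCm38, and all 10 were found. The KO group held 1 untreated library each at passages 2, 3 and 4, and the WT group likewise. The labels give neither the knocked-out gene nor strain, age, number of embryos or the origin of each culture. The passages of a genotype may therefore come from 1 culture, and p-values measure only the spread between these libraries. Genotype was read from the library titles, which a genotype tag contradicts for 2 libraries: those titled KO at passages 3 and 4 carry the tag WT.

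Keratins are the intermediate filament proteins of epithelia, and each filament pairs an acidic with a basic keratin. Krt5 and Krt14 form the pair of the basal layer of stratified epithelia, whose master regulator is the transcription factor p63 (Trp63). Krt8 pairs with Krt18 or Krt19 in simple, single-layered epithelia and in mesothelium. Epcam and Cdh1 (E-cadherin) join epithelial cells to each other. Cultured fibroblasts are mesenchymal and use vimentin (Vim) as their main intermediate filament.

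The libraries held 24853121 to 67760880 expected counts. As a check of the cell label, Vim had 2809, 2978 and 2940 TPM (a transcript level scaled for length and depth) in KO at passages 2, 3 and 4, and 2640, 2048 and 2457 TPM in WT. The 9 fibroblast markers summed to 7404 to 8587 TPM in KO and 12790 to 18220 TPM in WT. No member reached 20 TPM in any library, so all 10 were minor transcripts of these cultures. Genotype and sex moved together. Xist had 417 to 567 CPM (counts scaled to library size) in KO and 0.121 to 0.300 CPM in WT, and the Y-linked Ddx3y had 0 to 0.731 CPM in KO and 73.4 to 88.0 CPM in WT. A difference between KO and WT and a difference between female and male cells cannot be told apart here.

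In the levels per length, Krt19 (ENSMUSG00000020911, chromosome 11, 100140810 to 100148665) ranked first of the 10 in all 6 libraries. Averaged over the 6 libraries, Krt19 had 12.3 TPM, ahead of Krt18 with 3.14, Krt14 with 1.66, Krt8 with 1.5, Krt5 with 1.30 and Krt17 with 0.748. Cdh1 followed with 0.505 TPM, Epcam with 0.408, Trp63 with 0.0917 and Krt15 with 0.03. Krt19 exceeded Krt18 in 6 of 6 libraries and Epcam exceeded Trp63 in 6 of 6. The middle of the order was not fixed: Krt14 exceeded Krt8 in 2 of 6 libraries only, and Krt17 exceeded Cdh1 in 3 of 6.

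**Figure D1:**
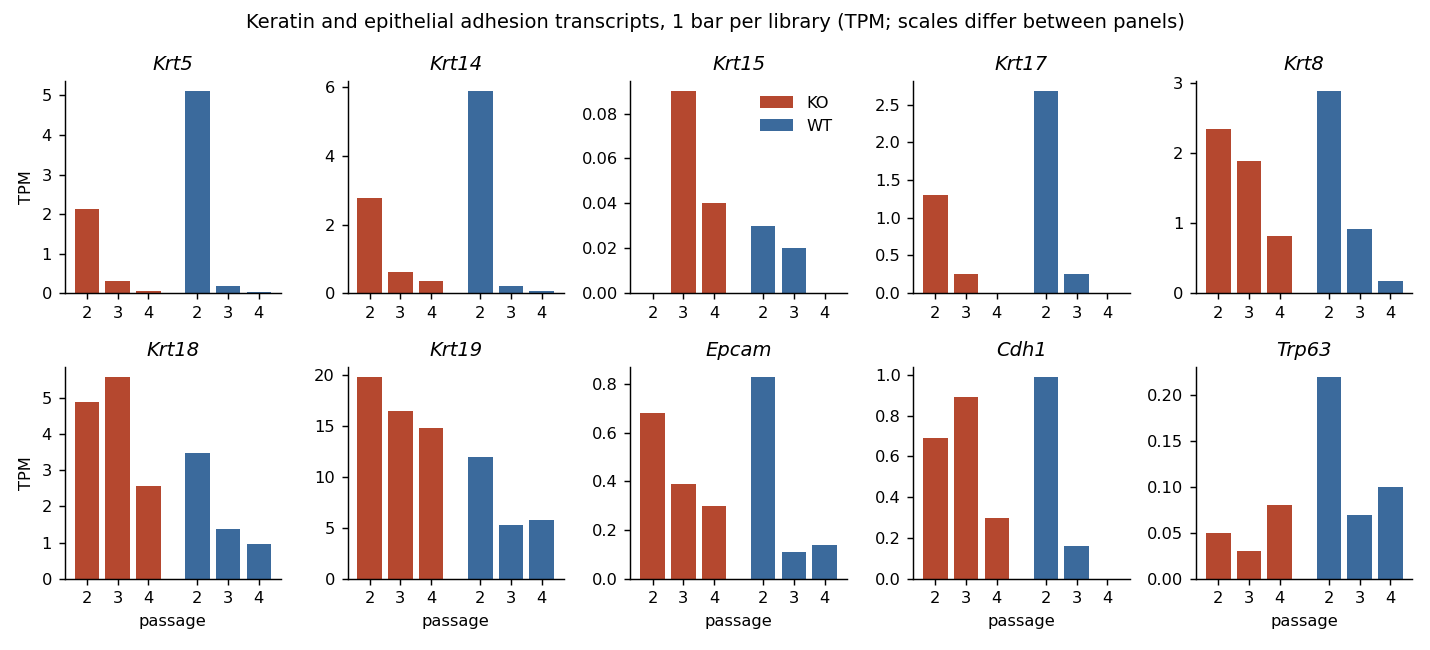
Level of each of the 10 genes in TPM (vertical axis, a separate scale in each panel) by passage (horizontal axis), with 1 bar per library, KO on the left and WT on the right. Krt5, Krt14 and Krt17 are high only at passage 2, while Krt19 stays above 14 TPM in KO and above 5 TPM in WT.

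The basal keratins share coding sequence with other epidermal keratins, which bears on their counts, because reads from a shared stretch had to be divided between genes. The longest coding runs that Krt14 has in common with 2 relatives are shown to give the size of that overlap, next to the runs that Krt14 shares with Krt19 and Krt5 with Krt8. They come from GENCODE M21 transcripts of GRCm38, are given in lower case and contain no capitals because every base is identical in both genes.
Krt14 and Krt16: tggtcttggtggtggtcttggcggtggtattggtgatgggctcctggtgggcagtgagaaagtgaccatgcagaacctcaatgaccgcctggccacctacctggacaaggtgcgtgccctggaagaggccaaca
Krt14 and Krt17: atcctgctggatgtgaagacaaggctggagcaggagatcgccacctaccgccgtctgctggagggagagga
Krt14 and Krt19: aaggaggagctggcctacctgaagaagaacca
Krt5 and Krt8: aagtatgaggatgagatcaacaagcgtac
The run of Krt14 and Krt16 covers 134 bases and that of Krt14 and Krt17 71 bases. Against a simple keratin the run was 32 bases for Krt14 and Krt19 and 29 bases for Krt5 and Krt8. Of the 64-base words in the transcripts of Krt14, 8.21% also occur in other genes, led by Krt16, and of those of Krt5 6.70%, led by Krt6a. For Krt17 the share was 1.01%. For Krt15, Krt18, Krt19, Epcam, Cdh1 and Trp63 no word was shared. Krt8 shared 24.2% of its words with its processed pseudogene Krt8-ps, so the count of Krt8 is less certain than its partners'.

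Transcripts of the basal keratins were present at passage 2 and nearly gone at passage 4 in both genotypes. Krt5, the basic partner of the pair (ENSMUSG00000061527, chromosome 15, 101707070 to 101712898), had 2.12, 0.31 and 0.06 TPM in KO at passages 2, 3 and 4, and 5.11, 0.18 and 0.03 TPM in WT. Krt14, the acidic partner (ENSMUSG00000045545, chromosome 11, 100203162 to 100207548), had 2.76, 0.63 and 0.36 TPM in KO and 5.89, 0.22 and 0.07 TPM in WT. In each genotype the passage 2 library was the highest and the passage 4 library the lowest for both genes. By edgeR with genotype as a covariate, Krt5 fell by 3.41 ± 0.29 on the log2 scale per passage (SE, adjusted p = 0.00163) and Krt14 by 2.69 ± 0.41 (adjusted p = 0.0128). Of the 16603 genes tested, Krt5 had the most negative slope, and Krt14 ranked 7 from that end. These ranks hold only among genes that passed the filter on low counts. Without the filter the most negative slope over 31578 genes was -10.91, against -3.40 for Krt5. Krt5 kept its call without each library in turn, and Krt14 lost its call without the WT library of passage 4 (adjusted p = 0.0791). By limma on log2(TPM + 1) neither was called. The slope was -1.03 ± 0.31 for Krt5 (adjusted p = 0.255) and -1.04 ± 0.33 for Krt14 (adjusted p = 0.285). That scale understates changes of low genes, yet the lower genes Cdh1 and Epcam were called on it, with smaller standard errors (0.084 and 0.08).

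Counts behind the late values were small. Rounded to whole counts at passages 2, 3 and 4, Krt5 had 76, 25 and 2 in KO and 251, 10 and 1 in WT. In CPM, Krt5 at passage 3 was 7.64-fold lower than at passage 2 in KO (95% interval 4.81 to 12.5) and 23.7-fold lower in WT (12.7 to 50.01). For Krt14 the same step was 5.17-fold in KO (3.41 to 7.98) and 25.0-fold in WT (12.5 to 58.7). These are exact intervals on the division of counts between 2 libraries and cover counting error only. By these estimates the larger step of Krt5 lay between passages 2 and 3 in both genotypes.

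Krt17, an acidic keratin of basal, follicular and wounded epidermis (chromosome 11, 100256217 to 100261029), did not pass the filter on low counts. It had 1.30, 0.25 and 0 TPM in KO and 2.68, 0.26 and 0 TPM in WT, the same order as Krt5 and Krt14. It had 0 counts at passage 4, where 3 counts per library were taken as the limit that 0 allows. Its level at passage 2 was 12.1 times this limit in KO and 17.3 times in WT, with no counting error of the passage 2 value included. Krt15, a basal keratin also used as a marker of hair follicle stem cells, had at most 5 counts in any library (0, 5 and 1 in KO, 1, 1 and 0 in WT), and no difference was detectable from so few.

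Krt6a, a keratin of follicles and activated epidermis that shares coding sequence with Krt5, fell by 3.34 ± 0.47 per passage (log2, SE, edgeR adjusted p = 0.00904). Its slope ranked 2 from the most negative among the 16603 genes that passed the filter. Added to Krt6a, Krt5 came to 3.36, 0.58 and 0.12 TPM in KO and 8.12, 0.23 and 0.03 TPM in WT. Krt14 with Krt16 gave 2.98, 0.67 and 0.36 TPM in KO and 7.02, 0.25 and 0.07 TPM in WT. Both sums ran in the same order over passages as Krt5 and Krt14 alone. Reads that Krt6a shares with Krt6b lie outside these sums.

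The simple keratins changed less over the passages. Krt19 had 19.79, 16.42 and 14.77 TPM in KO at passages 2, 3 and 4, and 11.91, 5.29 and 5.74 TPM in WT. Krt18, the acidic partner of Krt8 (chromosome 15, 102028180 to 102032027), had 4.87, 5.58 and 2.56 TPM in KO and 3.48, 1.38 and 0.95 TPM in WT. Krt8 (chromosome 15, 101996698 to 102004482) had 2.34, 1.89 and 0.82 TPM in KO and 2.88, 0.91 and 0.18 TPM in WT. The passage 2 library was the highest in each genotype for Krt8 and Krt19, and in WT for Krt18, whose highest KO library was passage 3.

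Krt8 fell by 1.25 ± 0.24 per passage (log2, SE, edgeR adjusted p = 0.0248) and Krt19 by 0.38 ± 0.08 (adjusted p = 0.0408). Krt18 had a slope of -0.72 ± 0.18 and missed the threshold (adjusted p = 0.0559), though DESeq2 called it (adjusted p = 0.00832). Krt8 lost its call without the KO library of passage 4 (adjusted p = 0.108) or the WT library of passage 2 (0.145) or 4 (0.0790). Krt19 kept its call only when the WT library of passage 3 was left out (adjusted p = 0.0367), and otherwise had adjusted p between 0.0962 and 0.186. Of the 7 tested members, 4 fell with passage and 0 rose, where 3.48% of all 16603 tested genes fell, 2.78% rose and 6.25% were called in either direction. With no filter on low counts, 8 of the 10 members fell, all but Krt15 and Trp63 and with Krt17 at -3.11 ± 0.33, where 4.9% of 31578 genes fell, 2.84% rose and 7.74% were called. The median slope of the 7 was -1.25, against 0.004 over all tested genes. Without the WT library of passage 2, which had the most basal keratin, 2 of the 7 fell (Krt5 and Krt14), where 210 of the 16603 genes did. Without the KO library of passage 4 the same pair fell, where 165 of all genes did. Only Krt5 fell without the WT library of passage 4, where 184 of all genes did. The filter kept Krt5 and Krt14 through their early libraries, so the slopes of the 7 are not those of all 10.

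Set side by side, the basal keratins made up a shrinking part of the keratin RNA. The 4 basal keratins summed to 6.18, 1.28 and 0.46 TPM in KO at passages 2, 3 and 4, and to 13.71, 0.68 and 0.1 TPM in WT. The 3 simple keratins summed to 27.0, 23.89 and 18.15 TPM in KO and to 18.27, 7.58 and 6.87 TPM in WT. Per length, the simple sum was 4.37, 18.7 and 39.5 times the basal sum in KO, and 1.33, 11.2 and 68.7 times in WT. At passage 2 the KO library had less basal and more simple keratin than the WT library, and at passages 3 and 4 it had more of both.

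Counted over the 7 keratins, the basal share was 23.2% (exact 95% interval 20.2 to 26.3) in KO at passage 2, 5.88% (4.68 to 7.28) at passage 3 and 2.52% (1.21 to 4.56) at passage 4. In WT it was 49.1% (46.2 to 52.1), 8.94% (6.04 to 12.5) and 1.55% (0.188 to 5.49). These intervals cover counting error only and hold no spread between cultures, so the shares of KO and WT are given as values of single libraries. Within the simple group, Krt19 carried 65.2% to 83.6% of the summed TPM in the 6 libraries. No test was made on these sums, since they are scores over chosen genes.

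**Figure D2:**
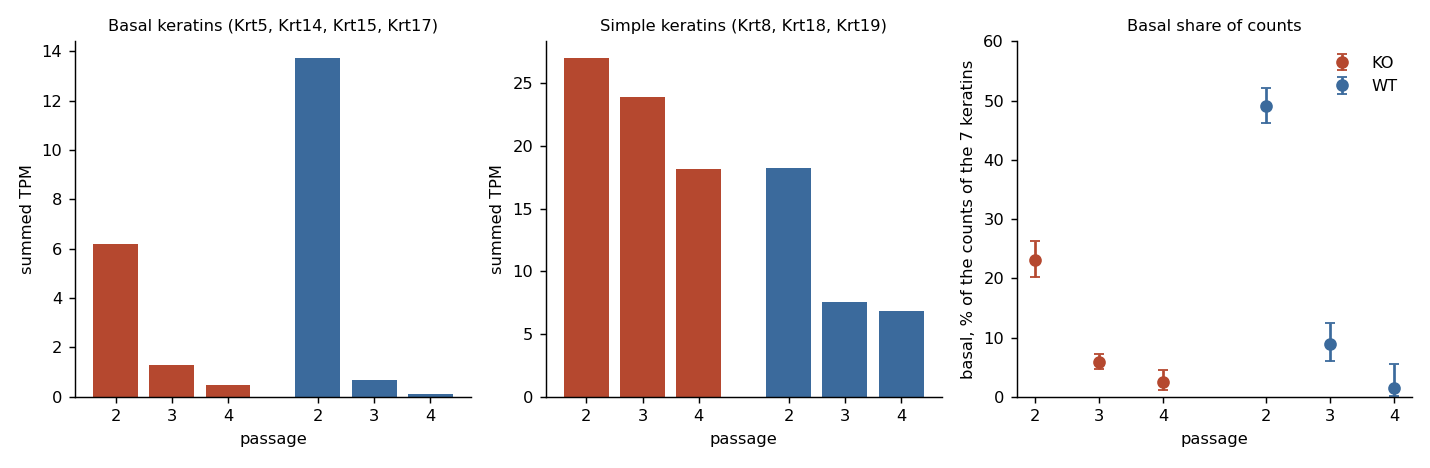
Summed TPM of the basal and of the simple keratins (left and middle panel, 1 bar per library) and the basal share of the counts of the 7 keratins in percent with exact 95% intervals (right panel), by passage, KO left of WT. The basal sum drops below 2 TPM after passage 2 in both genotypes, and the share lies between 1.55% and 8.94% at passages 3 and 4.

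Epcam and Cdh1 were low, and whether they passed the test for passage depended on the fit. Epcam, a homophilic adhesion molecule (chromosome 17, 87635979 to 87651129), had 0.68, 0.39 and 0.30 TPM in KO and 0.83, 0.11 and 0.14 TPM in WT (slope -1.08 ± 0.30, edgeR adjusted p = 0.0817). Cdh1, the calcium-dependent cadherin of adherens junctions (chromosome 8, 106603351 to 106670246), had 0.69, 0.89 and 0.30 TPM in KO and 0.99, 0.16 and 0 TPM in WT (slope -1.50 ± 0.46, adjusted p = 0.119). Cdh1 was called by DESeq2 (adjusted p = 0.00117), by limma on log2(TPM + 1) (0.00223) and by edgeR without the KO library of passage 2 (0.0284). Epcam was called by limma on log2(TPM + 1) (adjusted p = 0.0198) and not by DESeq2 (0.129). Passage 2 held the highest WT value of both genes, and for Cdh1 the highest KO value was at passage 3. The 0 counts of Cdh1 in the WT library of passage 4 allow up to 0.124 CPM. Its KO level at that passage, 0.636 CPM, was 5.12 times this limit, with no counting error of the KO value included. Trp63 (chromosome 16, 25683763 to 25892102) did not pass the filter. It had 4, 5 and 4 counts in KO and 24, 10 and 7 in WT, so KO was lower than WT at each passage. The ratio of CPM was 0.254 at passage 2 (exact 95% interval 0.0641 to 0.740), 0.287 at passage 3 (0.0768 to 0.920) and 0.439 at passage 4 (0.0942 to 1.73). Its WT level at passage 4 was 1.96-fold below that at passage 2 (interval 0.819 to 5.38).

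The genotype comparison asks whether KO and WT cultures differ in these genes over the 3 passages. Krt19 and Krt18 were called higher in KO by edgeR with passage as a replicate block, and not in the main fit, with genotype alone. Krt5 and Krt14 were called in neither. Krt19 had 12.2 ± 2.50 CPM in KO and 5.803 ± 1.998 CPM in WT (SD, n = 3 each), a log2 change of 1.06 ± 0.27 SE. The lowest KO library (9.79 CPM) lay above the highest WT library (8.06 CPM). Krt18 had 3.32 ± 1.33 CPM in KO and 1.53 ± 0.933 CPM in WT (log2 1.10 ± 0.50), with ranges that overlapped. With genotype alone in the edgeR fit neither passed (adjusted p = 0.0854 for Krt19 and 0.259 for Krt18). With passage as a replicate block, which removes the shared change over passages, both rose in KO (Krt19 log2 1.10 ± 0.14, adjusted p = 0.00708, and Krt18 log2 1.18 ± 0.28, adjusted p = 0.0395). DESeq2 also called Krt19 (adjusted p = 0.00437). Krt19 was not called by limma on log2(TPM + 1) (adjusted p = 0.05495) or log2(TPM + 0.1) (0.05406). Krt18 was called only with the block, and not by DESeq2 (adjusted p = 0.153), limma on log2(TPM + 1) (0.215) or edgeR without the filter (0.357).

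Without the block 0 of the 7 tested members passed by edgeR, where 2.48% of all genes did (0.934% higher and 1.55% lower in KO). Krt19 was the 1 member with an unadjusted p under 0.05, where 21.3% of all genes had one. DESeq2 called 1 of the 7, Krt19, and 1661 genes in all, and gave no adjusted p for Krt5 and Epcam. With the block 2 of 7 passed, both higher in KO, where 11.1% of all genes did (4.69% higher and 6.37% lower). With no filter on low counts Krt19 alone of the 10 passed (adjusted p = 0.0349), where 2.68% of genes did (1.19% higher and 1.49% lower). Krt8 (log2 0.30), Epcam (log2 0.27), Cdh1 (log2 0.71), Krt5 (log2 -1.06) and Krt14 (log2 -0.73) had adjusted p of 0.755 or more. For Krt5 and Krt14 the sign rested on the WT library of passage 2. Without it their log2 changes were 2.63 (adjusted p = 0.414) and 2.98 (adjusted p = 0.277), and with the block Krt14 had 0.12 (adjusted p = 0.910).

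Within single passages, Krt18 and Krt19 had ratios above 1 throughout, while Krt5, Krt14 and Krt8 lay below 1 at passage 2 and above 1 at passages 3 and 4. Krt5 in KO was 0.462 times its WT level at passage 2 (exact 95% interval 0.353 to 0.599), 1.43 times at passage 3 (0.664 to 3.34) and 1.54 times at passage 4 (0.0800 to 90.6). Krt14 stood at 0.518 times (0.391 to 0.680), 2.51 times (1.14 to 6.26) and 5.38 times (0.691 to 242.3), and the passage 4 values of both rest on 1 count in WT. For the simple keratins, the ratio of Krt19 was 1.83, 2.37 and 2.30 at passages 2, 3 and 4, and that of Krt18 was 1.55, 3.39 and 2.26. Krt8 had 0.903, 1.73 and 3.84. These ratios set 1 library against 1, and their intervals hold no spread between cultures.

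**Figure D3:**
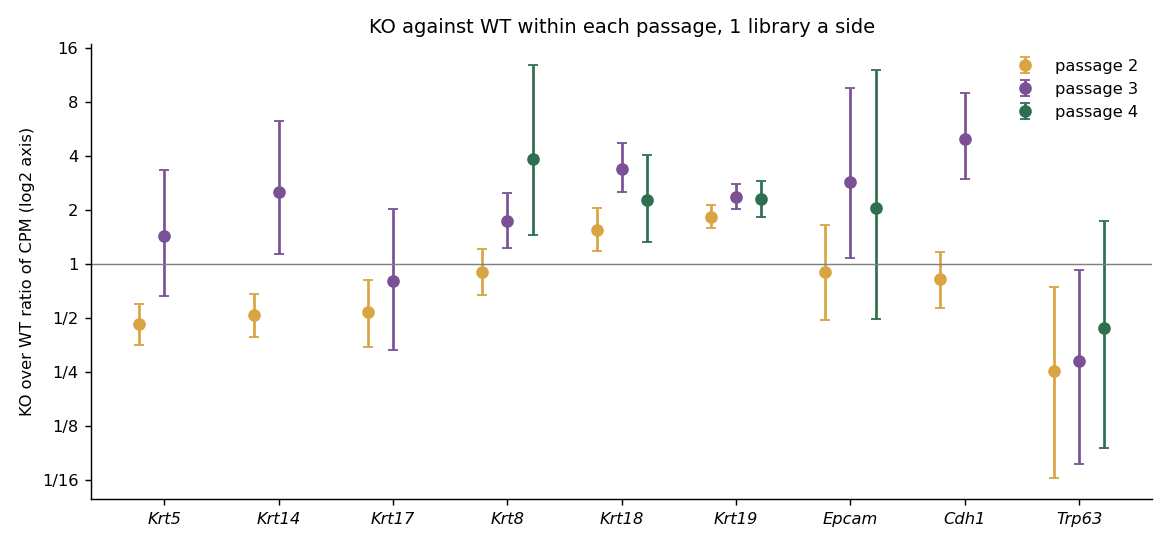
Ratio of CPM in KO over WT (vertical axis, log2 scale) for 9 genes at each passage, 1 library a side, with exact 95% counting intervals; pairs under 10 counts in all or with a 0 are left out. Krt18 and Krt19 lie above 1 at each passage, Krt5, Krt14 and Krt17 lie below 1 at passage 2, and Trp63 lies below 1 throughout.

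The decline was steeper in WT than in KO by estimate, but the difference of slopes did not pass. Krt5 had a slope of -2.79 ± 0.31 in KO and -4.19 ± 0.34 in WT (log2 per passage, SE), and Krt14 had -1.89 ± 0.31 and -4.19 ± 0.41 in the same order. For Cdh1 the values were -0.71 ± 0.39 in KO and -2.91 ± 0.51 in WT, for Krt8 -0.85 ± 0.25 in KO and -1.77 ± 0.28 in WT, and for Epcam -0.73 ± 0.38 in KO and -1.59 ± 0.44 in WT. Krt18 had -0.57 ± 0.25 in KO and -0.87 ± 0.26 in WT, and Krt19 -0.30 ± 0.11 in KO and -0.47 ± 0.11 in WT. Within KO 1 of the 7 fell, Krt5, where 0.638% of genes fell, 0.313% rose and 0.952% were called. Within WT 2 fell, Krt5 and Krt14, where 0.566% of genes fell, 0.241% rose and 0.807% were called. KO slope minus WT slope was 2.30 ± 0.61 for Krt14 (edgeR adjusted p = 0.574), 2.20 ± 0.68 for Cdh1 (adjusted p = 0.619) and 1.40 ± 0.58 for Krt5 (adjusted p = 0.727). These 3 had an unadjusted p under 0.05, as did 1137 of the 16603 genes, and 0 genes passed after adjustment (0% of those tested). The slopes of WT rest on 1 count each of Krt5 and Krt14 at passage 4.

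**Figure D4:**
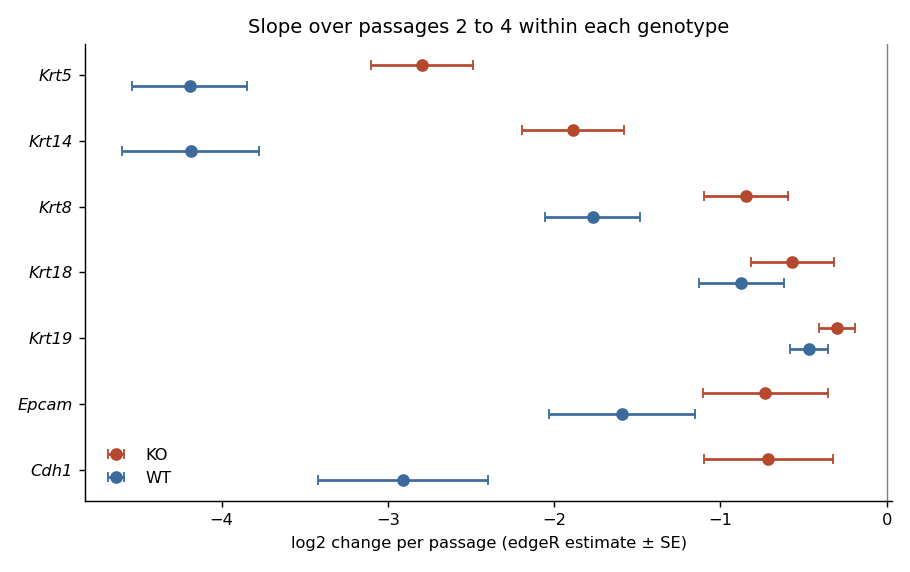
Slope over passages 2 to 4 within KO (upper point) and WT (lower point) for the 7 tested genes, as log2 change per passage from edgeR. Bars are standard errors derived from the F statistic of the test. The 2 basal keratins have the most negative slope in KO, from -1.89 to -2.79, and Krt19 lies nearest to 0 in both genotypes.

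Among other keratins, 53 protein-coding genes were in the tables, 21 had 0 counts in all 6 libraries and 16 had 20 or more counts in sum. Of 7 further simple and stress keratins fixed as a list, 4 were tested and 1 fell with passage, Krt6a. Krt7, a simple keratin of ducts and mesothelium, had 1.05, 1.71 and 0.79 TPM in KO and 1.31, 1.16 and 0.61 TPM in WT. Krt20, a simple keratin of gut and bladder, ran the other way, with 0.77, 2.73 and 2.38 TPM in KO and 0.37, 0.68 and 1.39 TPM in WT, and was not called. Of 9 genes of epidermal differentiation 4 were tested and 0 were called for passage by edgeR (1 at an unadjusted p under 0.05). The suprabasal keratin Krt1 had 0 counts throughout, but the 4 tested genes had counts in every library. Krt10 had 1.17 to 2.31 TPM, Ivl 0.42 to 2.23, Sfn 2.56 to 5.41 and Tgm1 0.46 to 3.85.

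Hemidesmosomes anchor basal cells to the basement membrane. In the hemidesmosome list 4 of 9 tested genes fell and 0 rose, with a median slope of -0.50. They were Lamb3 and Lama3, chains of laminin-332 (slopes -1.69 ± 0.38 and -1.17 ± 0.25), and Itgb4 and Itga6, the subunits of its integrin receptor (-0.54 ± 0.12 and -0.48 ± 0.06), with adjusted p from 0.00623 to 0.0449. Among desmosome genes 1 of 8 fell, the cadherin Dsg2 (-1.41 ± 0.28, adjusted p = 0.0264), and 1 rose, the plakophilin Pkp2 (0.33 ± 0.06, adjusted p = 0.0257). The tight junction gene Cgn, which encodes cingulin, was the 1 of 6 that fell (-0.94 ± 0.16, adjusted p = 0.0181). Of 9 adherens junction genes other than Cdh1, 0 were called for passage by edgeR (2 at an unadjusted p under 0.05). Cdh3 (P-cadherin) stood at 26.85, 25.97 and 40.65 TPM in KO and 45.05, 48.53 and 61.34 TPM in WT, above Cdh1 in every library. By edgeR it was called lower in KO with the passage block (log2 -0.87 ± 0.12, adjusted p = 0.00805). With genotype alone Cdh3 was not called (log2 -0.87 ± 0.19, adjusted p = 0.0678).

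Of the 7 transcription factors of the epithelial-to-mesenchymal transition 6 were tested and 0 were called for passage or genotype by edgeR (1 each at an unadjusted p under 0.05). Among filaments and cadherins of mesenchyme, Cdh2 and Cdh11 rose with passage (0.27 ± 0.05 and 0.27 ± 0.06), and the filament genes Des and Nes fell (-0.97 ± 0.19 and -0.51 ± 0.10), with adjusted p from 0.0283 to 0.0368. The fibroblast markers had 0 of 9 called for passage (2 at an unadjusted p under 0.05), and 6 of 9 fell in KO, among them Pdgfra (log2 -1.51 ± 0.17, adjusted p = 0.0107).

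Markers of other cell types moved with passage as well. All 8 macrophage markers fell (median slope -1.38), and their sum was 60.3, 20.99 and 14.4 TPM in KO and 90.5, 32.4 and 13.0 TPM in WT. Of 7 tested mesothelial markers 4 fell, Gpm6a, Msln, Lrrn4 and Wt1 (slopes -0.73 to -1.23), and the sum over all 8 was 25.6, 22.4 and 14.8 TPM in KO and 32.8, 19.5 and 11.4 TPM in WT. Of the 7 genes of the trophoblast list only 1 was tested, Gata3, a factor also used elsewhere, which rose (1.01 ± 0.11, edgeR adjusted p = 0.00355). Among the untested, Tpbpa had 0 counts in all 6 libraries and Hand1 had 3 to 18 counts a library. Elf5, Gcm1, Psg17 and Tfap2c had at most 6 counts in any library. The part of other cells in the keratin values was not tested. In bulk RNA, fewer epithelial cells and less keratin RNA per cell cannot be told apart.

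**Figure D5:**
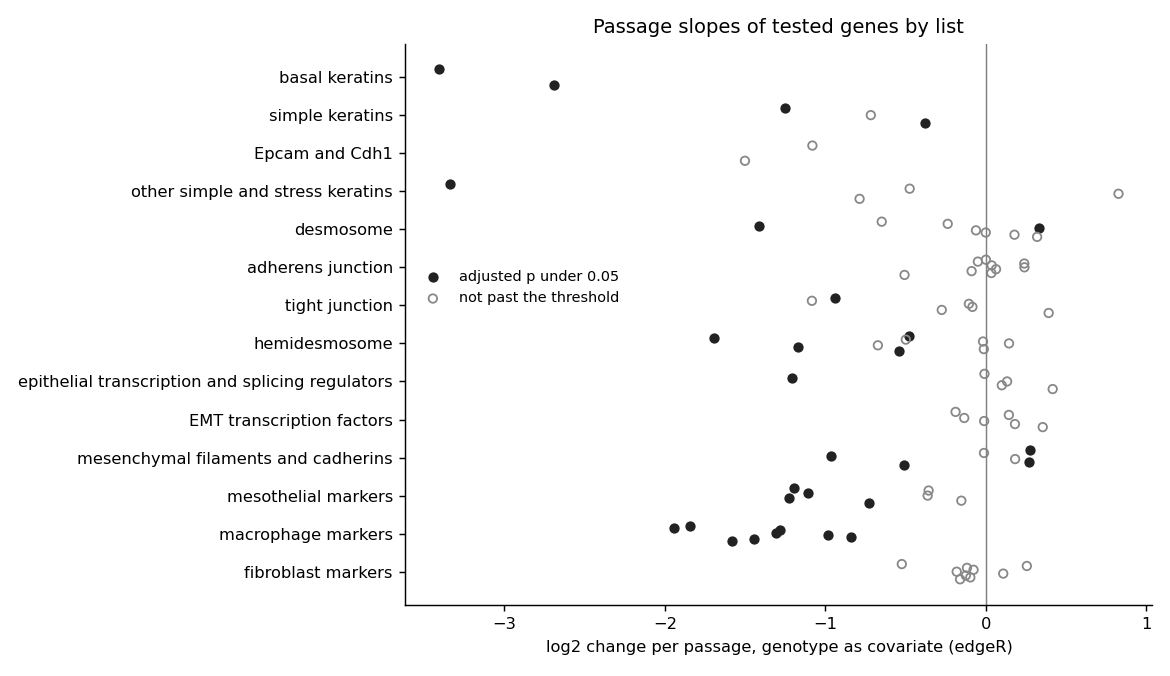
Passage slope (log2 change per passage, genotype as covariate) of each tested gene, 1 point per gene, by list; filled points have an edgeR adjusted p under 0.05. The basal keratins and Krt6a lie beyond -2.6, every macrophage marker lies between -0.84 and -1.95, and the fibroblast markers lie around 0.

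The genes with the most similar pattern were sought by Pearson correlation over the 6 libraries, as a description, among the 10730 protein-coding genes whose log2 CPM averaged 2 or more. Closest to the mean profile of Krt5 and Krt14 were Cep295, Abi2, Rps6ka3, Cxadr and Pds5b (r from 0.992 to 0.9995). Cxadr, which encodes an adhesion protein of epithelial tight junctions, had 28.9, 18.6 and 13.3 CPM in KO and 35.1, 17.1 and 10.9 CPM in WT, and fell with passage (slope -0.70 ± 0.08, adjusted p = 0.00456). Closest to Krt8, Krt18 and Krt19 were Suz12, Nedd1, Igf2bp1, Nes and Cep83 (r from 0.983 to 0.997). Nes, the filament gene nestin, had 99.4, 95.9 and 63.5 CPM in KO and 72.9, 53.7 and 27.4 CPM in WT. The other 8 genes had slopes of smaller size, from -0.11 to -0.34 per passage, so a high r here means a like order of libraries and not a like size of change.

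The 7 keratin genes lie in 2 clusters. Krt15, Krt19, Krt14 and Krt17 span 129.3 kb of chromosome 11, so neighbours there had very different slopes. On chromosome 15 the start sites of Krt8 and Krt18 are 23.7 kb apart and point away from each other. Windows of 250 bases before to 50 after the start were taken from RefSeq on GRCm38.p6, where 5 of the 10 genes had an entry. That of Krt14 starts 1518 bases from the GENCODE start and is not shown. The other 4 are printed so that a basal keratin, the simple pair and an adhesion gene can be read against each other, with capitals marking the E-box CAGGTG, a motif known to be bound by Snail and Zeb repressors, on either strand (CACCTG on the other).
Krt5, chr15:101712856-101713155, minus strand: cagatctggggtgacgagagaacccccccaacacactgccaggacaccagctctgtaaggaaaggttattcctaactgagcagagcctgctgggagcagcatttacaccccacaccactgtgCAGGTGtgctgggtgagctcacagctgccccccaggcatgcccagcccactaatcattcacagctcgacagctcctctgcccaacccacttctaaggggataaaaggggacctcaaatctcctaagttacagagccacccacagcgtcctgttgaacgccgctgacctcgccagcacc
Krt8, chr15:102004293-102004592, minus strand: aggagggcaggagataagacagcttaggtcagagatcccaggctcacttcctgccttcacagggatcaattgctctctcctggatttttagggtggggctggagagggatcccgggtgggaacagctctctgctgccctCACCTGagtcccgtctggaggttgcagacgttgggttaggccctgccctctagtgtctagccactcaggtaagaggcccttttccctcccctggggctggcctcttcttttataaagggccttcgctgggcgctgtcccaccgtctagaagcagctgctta
Krt18, chr15:102027966-102028265, plus strand: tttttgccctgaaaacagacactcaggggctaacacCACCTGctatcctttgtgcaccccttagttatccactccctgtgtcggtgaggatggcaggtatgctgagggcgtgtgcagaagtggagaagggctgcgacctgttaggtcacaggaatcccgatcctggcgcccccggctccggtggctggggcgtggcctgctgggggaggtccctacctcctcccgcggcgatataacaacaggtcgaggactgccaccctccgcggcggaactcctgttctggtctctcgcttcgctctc
Epcam, chr17:87635729-87636028, plus strand: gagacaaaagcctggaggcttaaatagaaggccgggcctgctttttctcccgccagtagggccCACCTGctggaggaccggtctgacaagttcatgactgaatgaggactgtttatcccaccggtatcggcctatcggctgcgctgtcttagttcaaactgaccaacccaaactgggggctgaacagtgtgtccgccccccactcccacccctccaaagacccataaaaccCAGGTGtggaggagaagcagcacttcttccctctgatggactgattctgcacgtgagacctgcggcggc
Each of the 4 windows held the motif, Epcam at 2 places and the others at 1, and the Krt14 window did not. Among all 32851 RefSeq windows of this length, 20.2% held it. The match is a description of these letters and says nothing of binding in these cells. Of the repressor genes, Zeb2 had 79.21 to 95.2 TPM in KO and 69.83 to 99.43 TPM in WT.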

How the data were processed

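RNA of untreated fibroblasts was sequenced in 6 libraries. The submitters' processing notes name Trimmomatic 0.39, RSEM and the build GRCm38. For the RSEM version, aligner, annotation release and strand setting the status is: not given in the sources used here. Deposited gene tables hold expected counts, which the authors' RSEM run made by dividing ambiguous reads between genes (12.0% to 15.8% of values not whole), and deposited TPM values, scaled for length.

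Expected counts were rounded, scaled by TMM and tested by the quasi-likelihood test of edgeR 4.0.16 in R 4.3.3 (robust, 2-sided) after a filter with minimum count 10. It left 16603 genes, among them 7 of the 10 members. A gene was called at an adjusted p under 0.05 (Benjamini-Hochberg, over all genes tested). The edgeR test gives no standard error, so each SE of an edgeR estimate is its size over the square root of the F statistic. Such an SE carries no information beyond the estimate and its test. Fits held genotype (4 residual degrees of freedom), a linear passage slope with genotype as covariate (3), or both with their product (2). Alternatives were a passage block, DESeq2 1.42.0, no filter, limma 3.58.1 on log2(TPM + 1) or log2(TPM + 0.1), the genotype tag and leaving out libraries. Deviations from the genotype means correlated between same-passage libraries over genes (r = 0.488, 0.137 and 0.416 at passages 2, 3 and 4). These r values include any passage change shared by the genotypes, so they cannot show that cultures were paired. The labels state no pairing, so the main genotype fit has no block and the block is an alternative.

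Members, lists and the rule for named genes (all members, list genes past the threshold, and the 5 genes most like each keratin group) were chosen with earlier results of these data known. Depth limits precision: 0 counts allow 3 counts, or 0.0431 to 0.124 CPM on the TMM-scaled library sizes, for counting error only. Of the results of the lists and of the shared coding runs, 1 gene and 1 sequence are not reported here.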

Additional observations from a re-analysis of the deposited data

How the results depend on the processing

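Every slope of the 7 tested members stayed negative in every fit run. The number of these 7 called for passage was 7 without the filter, 6 by DESeq2 and 1 to 4 with 1 library left out. By limma it was 4 on log2(TPM + 1) and 6 on log2(TPM + 0.1). For genotype, 1 member was called by DESeq2, 1 without the filter, 2 with passage as the replicate block, and 0 in each fit with 1 library left out. Over all genes, 412 were called for genotype, against 1835 with the replicate block (778 higher, 1057 lower in KO), 1661 by DESeq2 and 846 without the filter. The number was 70 without passage 2 and 44 to 860 with 1 library left out. For passage 1038 were called, against 1709 by DESeq2, 2443 without the filter and 248 to 1261 with 1 library left out. By limma 1229 were called for passage on log2(TPM + 1) and 1384 on log2(TPM + 0.1). By the genotype tag only the KO library of passage 2 counts as KO, so that fit sets 1 library against all others. The genotype change turned sign for Krt5 without passage 2 (0.53), with the tag (1.02) and without the WT library of passage 2 (range -3.15 to 2.63 with 1 library left out). It did so for Krt14 with the block (0.12), on log2(TPM + 0.1) (0.52), without passage 2 (1.48), with the tag (1.10) and in 1 of the fits without a library (-2.23 to 2.98), and for Krt8 (-0.16 to 1.37) and Epcam (-0.16 to 1.73) with 1 library left out. The cause was not tested. The log2 ratio of basal to simple keratins at passage 2 was -2.13 in KO and -0.41 in WT. It was -2.47 and -0.73 without Krt17, and -1.73 and -0.052 in CPM. In WT at passage 3 it was -3.48, and -4.17 without Krt17. At passage 4 Krt5 and Krt14 had 1 to 7 counts a library, which limits their values.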

Other observations

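Krt4 and Krt13, keratins that pair in the suprabasal layers of mucosal epithelia such as the oesophagus, were looked at after their values were seen. Krt13 had 14, 6 and 1 counts in KO at passages 2, 3 and 4, against 0 counts in each WT library. Krt4 had 13, 6 and 1 counts in KO, against 0 in each WT library. Both were highest at passage 2, as were Krt5 and Krt14. Neither passed the filter on low counts, and whether KO and WT differ was not tested. A count of 0 allows up to 3 counts in a library. At passage 3 that limit is 0.0751 CPM in WT, while 3 counts in the deeper KO library are 0.0431 CPM. The 6 counts in KO at passage 3 therefore lie near the WT limit, and the values of passages 3 and 4 cannot show a difference.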
